A study of Mus musculus with 44 samples.

Results

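The genes described here encode the subunits of the mitochondrial respiratory chain and of the ATP synthase, with the assembly factors that carry a complex I name. They were taken by gene symbol: names starting with Nduf (complex I), Sdha to Sdhd (complex II), names starting with Uqcr (complex III), Cox4 to Cox8 (complex IV) and names starting with Atp5 (complex V). Of 19938 genes measured by a probe set with a single gene symbol, 89 were members: 43 of complex I, 4 of complex II, 8 of complex III, 17 of complex IV and 17 of complex V. The name rule itself used no expression value, but it was chosen with earlier results of these data known. The complex given for a member follows its name only, and whether its protein belongs to that complex was not examined. Where a gene had several probe sets, the one with the highest mean was used.

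Complexes I to IV pass electrons from NADH and succinate to oxygen and, all but complex II, pump protons across the inner mitochondrial membrane. Complex V, the ATP synthase, lets the protons flow back and makes ATP. In macrophages (MFs), use of this pathway is known to differ between inflammatory cells, which lean on glycolysis, and repair-associated cells.

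The samples were MFs sorted from the tibialis anterior muscle of mice injured with cardiotoxin, a venom protein that destroys myofibres while leaving the muscle able to regrow. CD45+ cells were enriched with magnetic beads and sorted into Ly6C- F4/80high and Ly6C+ F4/80low MFs, and RNA was hybridised to 44 Affymetrix arrays. KO mice were C57B6/J with PPARg fl/fl alleles and LysM Cre+, so Pparg was targeted in cells that express Lyz2, the gene that carries the Cre; WT mice were C57B6/J, for which the labels name neither floxed allele nor Cre. At day 2, Ly6C- and Ly6C+ MFs came from WT mice given rosiglitazone, a PPARg agonist (3 arrays per subset), untreated KO mice (5 per subset) and untreated WT mice (6 per subset). Ly6C+ MFs of untreated KO and WT mice were also taken at day 1 and at day 4 (4 arrays per genotype and day). The labels call the arrays biological replicates but name no animal or batch, so p-values measure the spread between arrays, part of which may be technical.

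Several arrays did not match their labels in every respect. Lyz2, which the Cre insertion alters, averaged 9.49 to 9.72 on the log2 scale in the 4 KO groups and 12.95 to 13.01 in the rosiglitazone, day 4 and day 1 groups labelled WT. On the untreated day 2 arrays labelled WT, however, Lyz2 averaged 9.18 ± 0.10 (Ly6C-) and 8.87 ± 0.17 (Ly6C+) in replicates 1 to 3, and 12.86 ± 0.09 and 12.81 ± 0.19 in replicates 4 to 6 (SD, n = 3 each). Replicates 1 to 3 thus went against the WT label, so the counts of members called on these groups, and the values of the members described most closely, are also given with replicates 4 to 6 only; the marker and pathway lists were not read that way. Pparg itself did not pass the test between KO and WT arrays in any group; where its probe set lies relative to the deleted exons was not examined. The probe sets shared by Ly6c1 and Ly6c2 averaged 8.70 to 9.64 in Ly6C- MFs, 11.78 to 12.26 in Ly6C+ MFs of day 1 and day 2, and 9.83 to 10.23 on the day 4 arrays labelled Ly6C+, which were thus closer to Ly6C- MFs. Replicate 5 of the untreated day 2 Ly6C+ MFs labelled WT stood apart: its mean correlation with its group was 0.978, against at least 0.983 for each of the other 43 arrays, and it was the lowest or highest of the 6 arrays for 60 of the 89 members.

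The members were bright genes. Of the 89, 80 had a mean log2 level above 6.88, the median of all genes tested, and the range of their means was 4.12 (Cox7b2, a testis isoform) to 12.48 (Atp5d). The highest and lowest means within a complex were 11.64 for Ndufc2 and 6.19 for Ndufa4l2 in complex I, 10.33 for Sdha and 9.46 for Sdhb in complex II, 11.22 for Uqcrb and 7.88 for Uqcrfs1 in complex III, 12.16 for Cox6c and 4.12 for Cox7b2 in complex IV, and 12.48 for Atp5d and 8.43 for Atp5k in complex V; since probe sets differ in brightness, these say little of the order of the transcripts. All 4 members of complex II, all 8 of complex III and all 17 of complex V were above that median, as were 36 of 43 in complex I and 15 of 17 in complex IV. Because bright genes pass a test more easily on arrays, the share of calls among all genes is not the only one given below. For the day 2 subsets, and for day 4 against day 1 and day 2 Ly6C- MFs, it is also given among bright genes. These were the 6414 genes with a mean of at least 8, which included 70 members.

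Promoter windows of 300 bases, 250 before and 50 after the start of the gene, were read from RefSeq (GRCm38.p6) for 73 members, using the first window listed per gene; the other 16 had no window in the table. Letters of factors known to act on nuclear genes of mitochondrial proteins were searched on both strands. The NRF1 palindrome, GCGCA followed directly by TGCGC, was found in 7 of 73 member windows (9.59%), against 0.977% of all 27025 windows. CCGGAAG, the letters bound by ETS factors such as GABPA, was in 17 (23.3%, against 9.12% of all windows), AAGATGGC (YY1) in 9 (12.3%, against 2.88%), TCAAGGTCA (ERR) in 2 (2.74%, against 0.407%) and GGGCGG (SP1) in 33 (45.2%, against 35.9%). Of the 9 windows with the YY1 letters, 7 belonged to complex I, which held 38 of the 73 windows read. Whether the letters favoured a complex was not tested. In 1 member the letters of different motifs overlapped. A match describes the letters only. The windows below belong to Cox7a1, the member with the widest gap between Ly6C- and Ly6C+ MFs, and to a member of complexes I, II, IV and V that had such letters and is described in the results; capitals mark the NRF1, ETS, YY1 and ERR letters on either strand.
Cox7a1 promoter, GRCm38.p6 chr7:30183921-30184220 (plus strand): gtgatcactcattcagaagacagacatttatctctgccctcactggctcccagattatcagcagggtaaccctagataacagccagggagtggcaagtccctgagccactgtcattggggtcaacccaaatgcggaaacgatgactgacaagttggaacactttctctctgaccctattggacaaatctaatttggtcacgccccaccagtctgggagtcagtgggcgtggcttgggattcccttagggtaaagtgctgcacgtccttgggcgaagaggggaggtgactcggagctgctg
Cox6a1 promoter, GRCm38.p6 chr5:115348909-115349208 (minus strand): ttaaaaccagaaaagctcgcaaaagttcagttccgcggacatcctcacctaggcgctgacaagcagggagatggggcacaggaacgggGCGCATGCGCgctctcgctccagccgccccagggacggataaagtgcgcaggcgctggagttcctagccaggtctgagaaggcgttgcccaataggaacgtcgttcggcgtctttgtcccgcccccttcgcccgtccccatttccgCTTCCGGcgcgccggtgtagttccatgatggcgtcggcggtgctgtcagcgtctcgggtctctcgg
Ndufb8 promoter, GRCm38.p6 chr19:44555393-44555692 (minus strand): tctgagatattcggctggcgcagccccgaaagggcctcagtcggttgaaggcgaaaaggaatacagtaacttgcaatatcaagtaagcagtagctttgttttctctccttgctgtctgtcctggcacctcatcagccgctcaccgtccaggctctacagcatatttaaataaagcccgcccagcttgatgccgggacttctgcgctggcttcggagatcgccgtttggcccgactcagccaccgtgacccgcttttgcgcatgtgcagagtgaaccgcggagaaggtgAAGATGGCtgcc
Sdhd promoter, GRCm38.p6 chr9:50603800-50604099 (minus strand): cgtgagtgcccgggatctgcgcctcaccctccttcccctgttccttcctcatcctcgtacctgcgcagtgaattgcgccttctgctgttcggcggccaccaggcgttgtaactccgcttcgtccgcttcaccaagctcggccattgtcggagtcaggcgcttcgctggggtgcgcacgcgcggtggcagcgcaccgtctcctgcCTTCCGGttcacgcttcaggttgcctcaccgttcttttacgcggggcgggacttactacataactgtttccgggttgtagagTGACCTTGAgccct
Atp5g2 promoter, GRCm38.p6 chr15:102670998-102671297 (minus strand): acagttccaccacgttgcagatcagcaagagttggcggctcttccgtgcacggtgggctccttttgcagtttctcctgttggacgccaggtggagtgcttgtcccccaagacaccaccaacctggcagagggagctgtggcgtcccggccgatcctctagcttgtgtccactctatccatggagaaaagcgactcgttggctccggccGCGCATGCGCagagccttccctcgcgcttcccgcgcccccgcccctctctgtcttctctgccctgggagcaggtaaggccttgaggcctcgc
No NRF1, ETS, YY1 or ERR letters were found in the Cox7a1 window. The Cox6a1 window held the NRF1 and ETS letters, Sdhd the ETS and ERR letters, Ndufb8 the YY1 letters, and Atp5g2 the NRF1 letters.

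The first comparison asked how Ly6C- MFs differed from Ly6C+ MFs at day 2, when both subsets were present. Most members were higher in Ly6C- MFs, and they came from every complex. On the arrays labelled WT, 65 of 89 members were higher and 1 lower at an adjusted p below 0.05 (limma, Benjamini-Hochberg over 19938 genes), where 22.2% of all genes were higher and 23.0% lower. The median difference was 0.40 over the members and -0.07 over all genes, on the log2 scale throughout. Among bright genes, 55 of 70 members (78.6%) were higher, against 39.2% of all bright genes. Complex I gave 34 of 43 higher (median 0.46), complex II 4 of 4 (0.44), complex III 6 of 8 (0.36), complex IV 9 of 17 with 1 lower (0.21), and complex V 12 of 17 (0.33). With each array centred on its median, 67.2% of the calls over all genes were higher in place of 49.1%, and 72 members were higher and 1 lower. With replicates 4 to 6 only, 58 members were higher and 1 lower (17.6% and 12.4% of all genes), with 29 of 43, 2 of 4, 6 of 8, 9 of 17 and 12 of 17 higher in complexes I to V. All of Ndufab1 (1.10), Ndufb8 (0.90), Ndufb6 (0.85), Cox7a2 (0.76), Sdha (0.65), Atp5g2 (0.58), Uqcrb (0.51), Cox6a2 (0.33) and Cox6b2 (-0.53), described below with all 6 replicates, passed in that fit. Without replicate 5 of the Ly6C+ MFs 70 were higher and 1 lower. In sorted bulk RNA, a change of RNA per cell and a change in the mix of cells cannot be told apart.

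**Figure D1:**
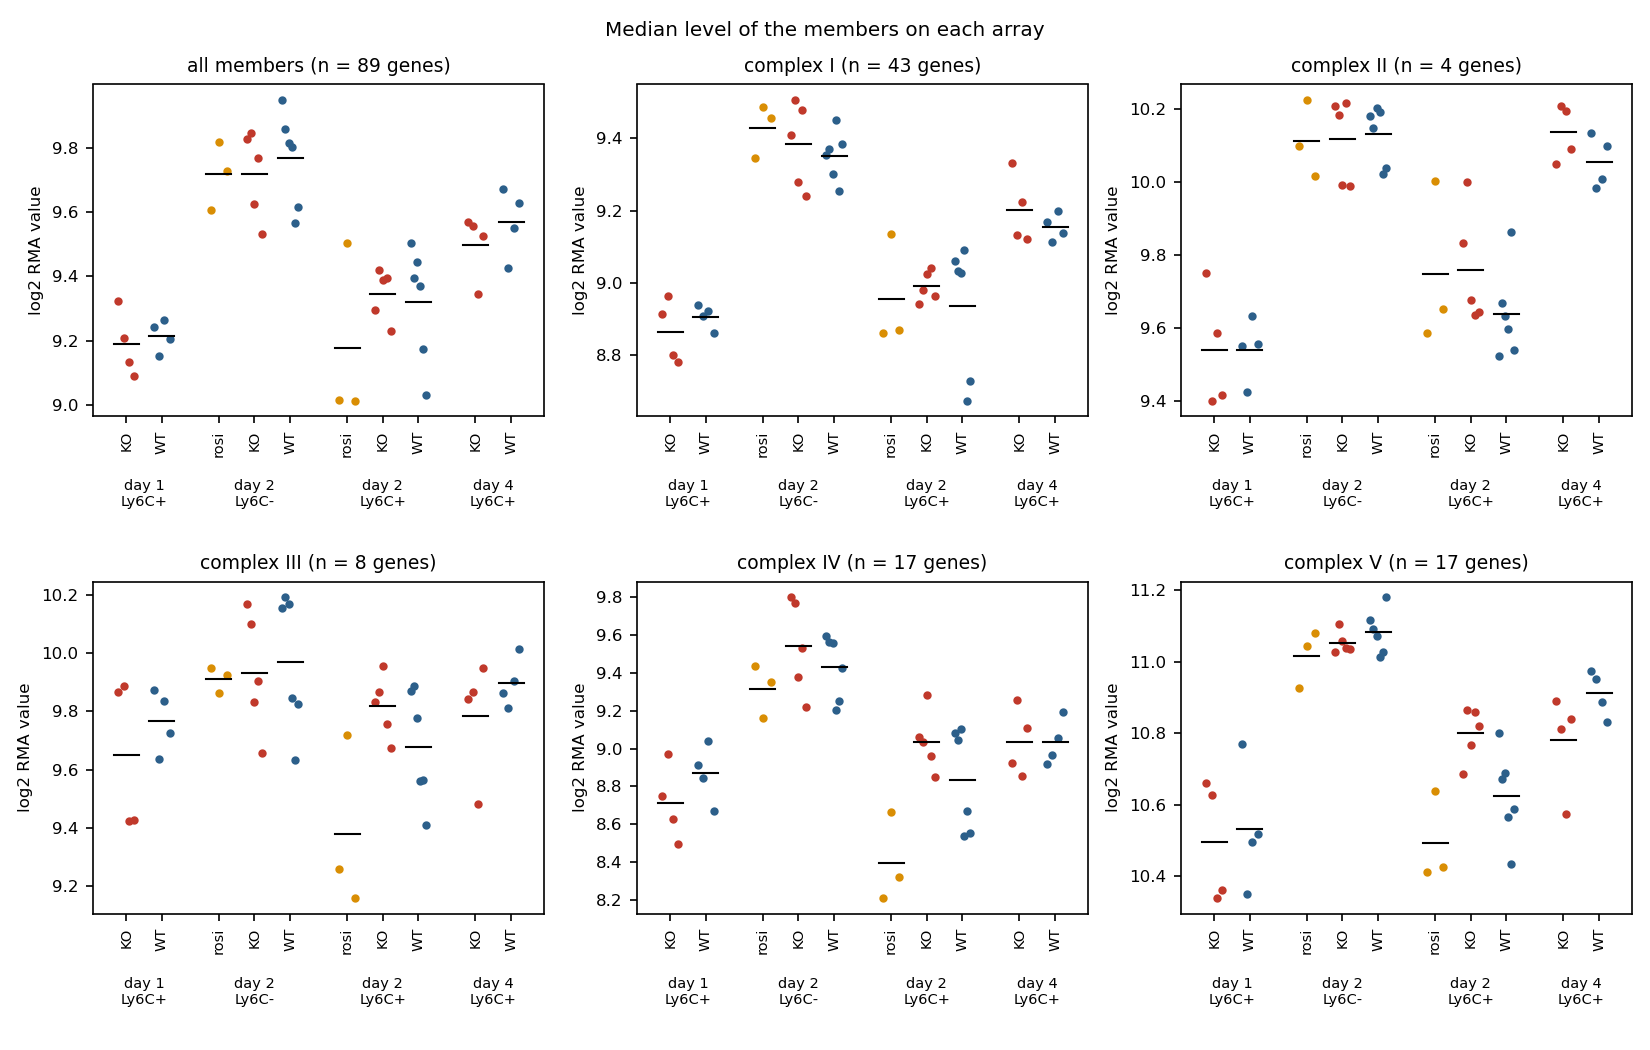
Median log2 level over the members on each array, for all 89 members and for each complex, by group; points are arrays and bars are group means. The day 2 Ly6C- groups (means over all members of 9.72 with rosiglitazone, 9.72 in KO and 9.77 in untreated MFs labelled WT) lie above the Ly6C+ groups of day 2 (9.18, 9.35 and 9.32), with day 4 (9.50 in KO, 9.57 in WT) between them.

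Markers of dividing cells moved the same way. All 11 measured markers were higher in Ly6C- MFs of each of the 3 settings, and their mean level was 8.30 to 8.91 on Ly6C- arrays labelled WT, against 7.26 to 7.57 on Ly6C+ arrays. Muscle fibre markers did not move up: none of 15 was higher, 2 were lower, and their mean level was 6.41 to 6.62 in Ly6C- MFs and 6.43 to 6.60 in Ly6C+ MFs. All 5 measured monocyte markers were lower in Ly6C- MFs of each setting. Of 8 macrophage markers 3 were higher and 2 lower labelled WT, of 13 neutrophil markers 2 were higher and 6 lower, and none was higher of 7 endothelial (6 lower) and 7 fibroblast markers (5 lower). The mean level of the endothelial markers was 6.37 to 6.63 on Ly6C- arrays labelled WT and 6.50 to 7.26 on Ly6C+ arrays, against 6.55 to 6.72 on Ly6C+ arrays of KO MFs. The part of these lists in the members' levels was not tested.

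In complex I, 34 of 43 members were higher, with differences of up to 0.96. Ndufab1, the mitochondrial acyl carrier protein that is also a complex I subunit, was at 9.14, 9.45 and 9.64 (lowest, median and highest of 6 arrays) in Ly6C- MFs labelled WT, against 8.15, 8.42 and 8.76 in Ly6C+ MFs. The subsets did not overlap, and the difference was 0.96 (SE 0.11, adjusted p = 1.05e-09, limma). In KO mice Ndufab1 was at 9.24, 9.52, 9.20, 9.39 and 9.33 in Ly6C- MFs and at 8.49, 8.66, 8.37, 8.49 and 8.15 in Ly6C+ MFs, again with no overlap (difference 0.90, adjusted p = 5.17e-08, limma). With rosiglitazone its 3 Ly6C- arrays (9.14, 9.48 and 9.54) were also above all 3 Ly6C+ arrays (7.96, 8.67 and 8.12), with a difference of 1.14.

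Ndufb6, a supernumerary subunit of the complex I membrane arm, was at 10.78, 11.06 and 11.30 in Ly6C- MFs labelled WT and at 10.23, 10.34 and 10.45 in Ly6C+ MFs, with no overlap (difference 0.70, SE 0.10, adjusted p = 1.5e-07, limma). Ndufb8, another subunit of that arm, was at 9.42, 9.70 and 10.06 in Ly6C- MFs and at 8.37, 9.18 and 9.36 in Ly6C+ MFs. Its lowest Ly6C- array was just above its highest Ly6C+ array, and the difference was 0.76 (SE 0.14, adjusted p = 2.99e-05, limma). Of the other members with an Nduf name, Ndufa1 rose by 0.81, Ndufs5 by 0.74, Ndufa8 by 0.73, Ndufa4 by 0.70, Ndufs6 by 0.67 and Ndufc2 by 0.60. The core subunits Ndufs1 and Ndufv1, which carry iron-sulfur clusters, rose by 0.56 and 0.45. All 6 core subunits, 22 of 29 supernumerary subunits and 6 of 7 assembly factors were higher. Ndufaf1, an assembly factor, was at 7.24, 7.80 and 8.72 in Ly6C- MFs and 6.83, 7.11 and 7.53 in Ly6C+ MFs, so that the subsets overlapped (difference 0.78, SE 0.22, adjusted p = 0.0038, limma). Ndufaf1 did not pass with replicates 1 to 3 only (0.50, adjusted p = 0.128, limma) and passed with replicates 4 to 6 only (1.07, adjusted p = 0.00261, limma).

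Succinate dehydrogenase, complex II, rose as a whole in the untreated MFs labelled WT. Sdha, its flavoprotein, was at 10.40, 10.54 and 10.81 in Ly6C- MFs and at 9.86, 9.98 and 10.15 in Ly6C+ MFs, with no overlap and a difference of 0.58 (SE 0.06, adjusted p = 2.28e-10, limma). Sdhb, the iron-sulfur subunit, differed by 0.47, and the membrane anchors Sdhc and Sdhd by 0.37 and 0.41. With replicates 4 to 6 only, Sdhb (0.28, adjusted p = 0.0924) and Sdhc (0.37, adjusted p = 0.156) did not pass (limma). Sdhd showed the split within the arrays labelled WT: Ly6C- replicates 1 to 3 were at 9.22 to 9.23, and replicates 4 to 6 at 9.75 or above. Ly6C+ MFs were at 8.89, 9.10 and 9.47 (lowest, median and highest). In KO MFs Sdha differed by 0.45 (adjusted p = 9.17e-07), and Sdhd by 0.32, which did not pass (adjusted p = 0.0542, limma).

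In complex III, Uqcrb (0.49), Uqcr11 (0.42), Uqcrq (0.41), the core subunits Uqcrc1 (0.39) and Uqcrc2 (0.33) and Uqcr10 (0.33) were higher in Ly6C- MFs labelled WT. Uqcrb was at 11.31, 11.44 and 11.61 in Ly6C- MFs against 10.74, 10.95 and 11.19 in Ly6C+ MFs, with no overlap. Uqcrfs1, the Rieske iron-sulfur protein, did not follow: its arrays were at 7.90, 8.03 and 8.37 in Ly6C- MFs and 7.45, 8.05 and 8.24 in Ly6C+ MFs. Its difference was 0.09, with a 95% interval of -0.11 to 0.30. Uqcrh, the hinge protein, differed by -0.06 and did not pass either (adjusted p = 0.735, limma).

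Complex IV held both extremes of the comparison. Cox7a1, known as the heart and muscle isoform of subunit 7a, was at 8.18, 8.59 and 8.93 in Ly6C- MFs labelled WT and at 6.97, 7.42 and 7.73 in Ly6C+ MFs. The subsets did not overlap, and the level was 2.29-fold higher (difference 1.20, SE 0.13, adjusted p = 7.7e-10, limma). In KO mice it was at 8.66, 8.50, 8.35, 8.34 and 8.04 in Ly6C- MFs and at 7.35, 7.06, 7.50, 7.27 and 7.07 in Ly6C+ MFs. With rosiglitazone it was at 8.29, 8.51 and 8.31 in Ly6C- MFs and at 6.77, 7.18 and 6.97 in Ly6C+ MFs. Neither of these pairs overlapped, with differences of 1.13 (adjusted p = 3.75e-08) in KO MFs and 1.40 (adjusted p = 1.25e-07) with rosiglitazone, both from limma. Cox7a1 also differed within the arrays labelled WT: replicates 1 to 3 were at 8.87 to 8.93 in Ly6C- MFs and 7.51 to 7.73 in Ly6C+ MFs, and replicates 4 to 6 at 8.18 to 8.31 and 6.97 to 7.33. The subset difference was 1.12 with replicates 4 to 6 only.

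The widely expressed counterpart Cox7a2 was higher by 0.63 in Ly6C- MFs labelled WT (SE 0.13, adjusted p = 0.000167, limma), by 0.50 in KO MFs and by 1.03 with rosiglitazone. Cox7a2l, a relative that takes part in forming supercomplexes, was not: it was at 7.86, 7.89 and 7.99 in Ly6C- MFs and at 7.70, 7.85 and 8.67 in Ly6C+ MFs, and its interval for the difference was -0.28 to 0.15. Cox6a2, a muscle isoform, was higher by 0.36, and its arrays did not overlap (8.50 to 8.75 in Ly6C- MFs, 8.07 to 8.38 in Ly6C+ MFs). Cox6b2, a testis isoform, was the 1 member that was lower in each setting, with differences of -0.37 on the arrays labelled WT (adjusted p = 0.000165, limma), -0.35 in KO MFs and -0.45 with rosiglitazone. Its arrays in the untreated MFs labelled WT overlapped (6.54, 6.83 and 7.18 in Ly6C- MFs, 7.02, 7.23 and 7.37 in Ly6C+ MFs). Cox4i2, Cox7b2, Cox8b and Cox8c, isoforms known from lung, testis or muscle, and Ndufa4l2 passed the test in none of the 3 settings. Of the general subunits, Cox4i1 (0.45), Cox5a (0.53), Cox5b (0.36), Cox6a1 (0.59) and Cox8a (0.21) were higher on the arrays labelled WT.

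**Figure D2:**
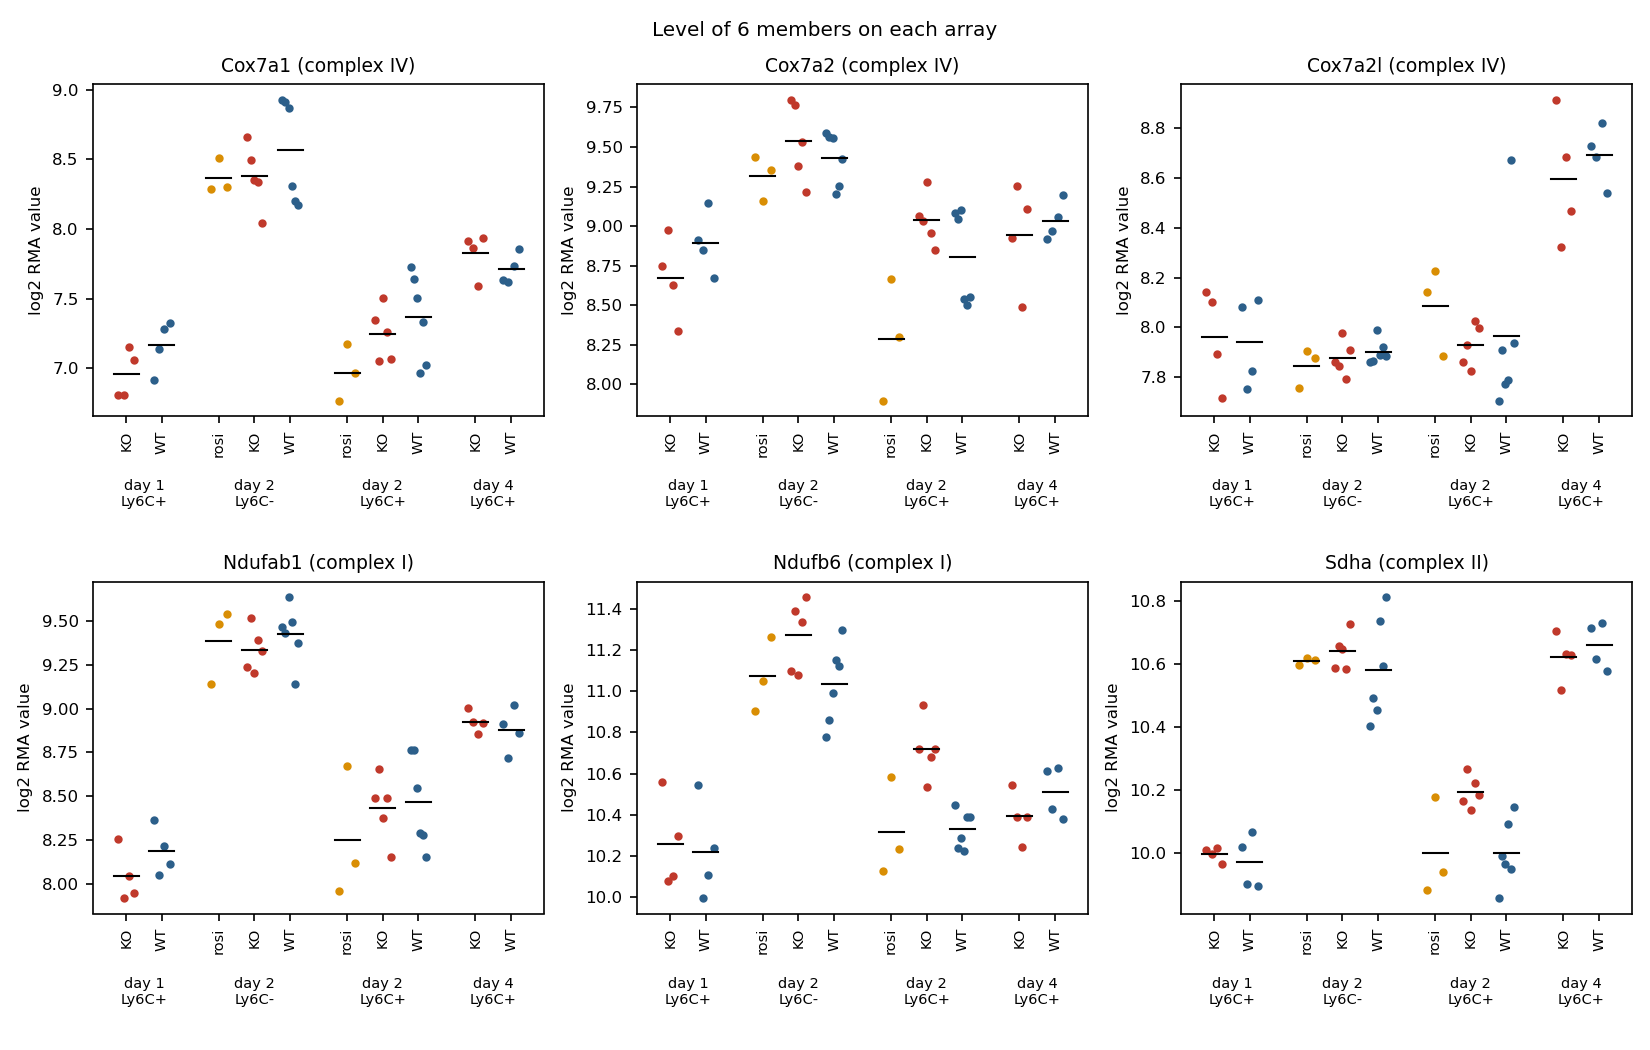
Log2 level of Cox7a1, Cox7a2, Cox7a2l, Ndufab1, Ndufb6 and Sdha on each array by group; points are arrays and bars are group means. Cox7a1 lies between 8.04 and 8.93 in the day 2 Ly6C- groups and between 6.77 and 7.73 in the day 2 Ly6C+ groups, and Cox7a2l stands out only at day 4 (8.32 to 8.92) and on 1 Ly6C+ array labelled WT at day 2 (8.67).

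In complex V, the 3 genes that encode the same mature protein of the c ring were all higher in Ly6C- MFs labelled WT: Atp5g2 by 0.49 (SE 0.06, adjusted p = 3.57e-08, limma), Atp5g3 by 0.44 and Atp5g1 by 0.19, the last of which did not pass with replicates 4 to 6 only (0.15, adjusted p = 0.202, limma). Atp5g2 was at 11.77, 11.86 and 11.97 in Ly6C- MFs and 11.10, 11.40 and 11.54 in Ly6C+ MFs, with no overlap. In the F1 head, Atp5a1 was higher by 0.53 and Atp5b by 0.19. Atp5d, the delta subunit of F1, rested on the array that stood apart: replicate 5 of the Ly6C+ MFs labelled WT was at 9.75 and the other 5 at 12.15 to 12.69, and its difference of 0.50 (SE 0.23) did not pass (adjusted p = 0.0741, limma). Among the parts of the enzyme, 4 of 5 F1 genes, 3 of 3 c ring genes and 5 of 9 genes of the stalk and membrane part passed.

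Most members were also higher in Ly6C- MFs in the other settings. In KO MFs 58 members were higher and 1 lower in Ly6C- MFs (19.8% and 18.6% of all genes), with a median of 0.31 against -0.09 over all genes; among bright genes 70.0% of members were higher, against 34.2% of all. Centring each array on its median gave 68 higher and 1 lower, with 74.7% of the calls over all genes higher in place of 51.5%. With rosiglitazone 50 were higher and 1 lower (14.6% and 8.68% of all genes), with a median of 0.37 against -0.04, and among bright genes 62.9% of members were higher, against 26.0% of all. With the replicate number as a block, since its 3 numbers paired the samples, 47 were higher and 1 lower. Of the 65 higher members labelled WT, 52 were also higher in KO MFs (80.0% of 65, 89.7% of 58) and 45 with rosiglitazone (69.2% of 65, 90.0% of 50). In all 3 settings 40 members were higher, and 16 were higher in none, among them Atp5d, Atp5h, Atp5l, Cox7a2l, Cox7b, Ndufa2, Ndufa7, Uqcrfs1 and Uqcrh. Cox7a1 had the largest difference in each setting, and Ndufab1 was among the 3 largest. The next in KO MFs were Ndufaf1 (0.95), Ndufa9 (0.76), Ndufs5 (0.68), Ndufs4 (0.63), Ndufc1 (0.60), Ndufaf4 (0.58), Ndufs1 (0.58) and Ndufa1 (0.58), all of complex I. With rosiglitazone the next were Ndufa9 (1.22), Cox7a2 (1.03), Ndufa4 (1.01), Ndufa1 (0.97), Cox6a1 (0.95), Cox5a (0.87), Atp5o (0.87) and Uqcrq (0.86). By complex, KO MFs gave 33 of 43, 3 of 4, 4 of 8, 8 of 17 and 10 of 17 higher for complexes I to V, and rosiglitazone-treated MFs 25, 2, 4, 9 and 10. The tests of the difference between settings are given with the genotype and rosiglitazone comparisons.

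**Figure D3:**
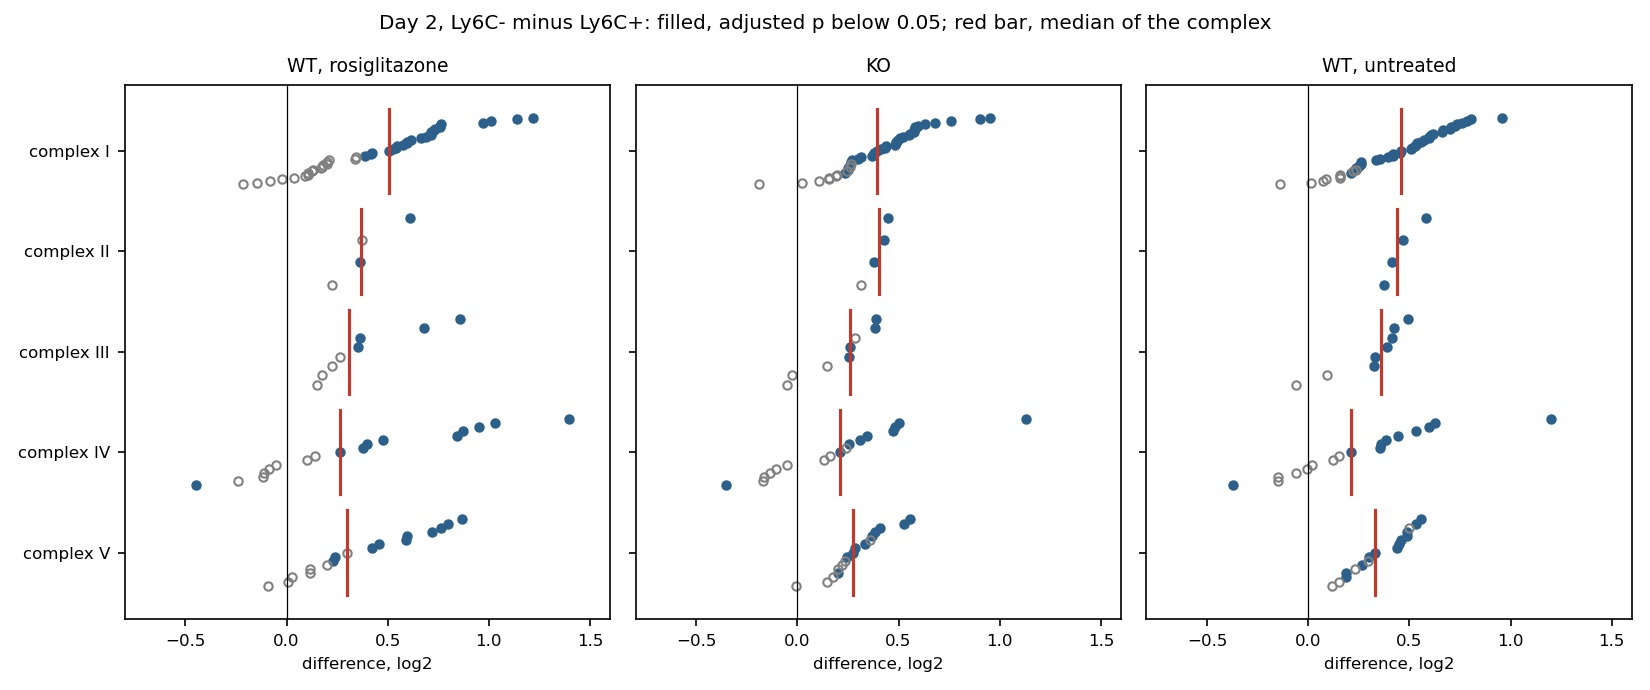
Difference between Ly6C- and Ly6C+ MFs at day 2 (log2) for each member, by complex, in rosiglitazone-treated WT, KO and untreated MFs labelled WT; filled points passed the test and the red bar is the median of the complex. The medians of complex I are 0.51, 0.39 and 0.46, most points lie above 0, and the filled point below 0 in each panel is Cox6b2.

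The next comparisons set MFs labelled Ly6C+ at days 1, 2 and 4 against each other. The day 4 arrays had Ly6c levels closer to those of Ly6C- MFs. A difference of day and a difference of subset therefore cannot be told apart at day 4. Between day 2 and day 1 few members moved. In KO MFs 7 were higher at day 2 and 0 lower (6.06% and 2.58% of all genes), and on the arrays labelled WT 8 were higher and 0 lower (6.51% and 3.17%), which is near the background. Those in KO MFs were Ndufb6 (0.46), Ndufa4 (0.42), Ndufaf6 (0.42), Ndufab1 (0.39), Ndufc2 (0.37), Ndufs1 and Atp5c1. Those on the arrays labelled WT were Sdhb (0.41), Ndufaf4 (0.39), Ndufaf6 (0.39), Uqcr11 (0.37), Ndufaf5, Cox6b1, Ndufs7 and Ndufa10. Ndufaf6 was the 1 gene in both lists. Of the 8 genes on the arrays labelled WT, Uqcr11, Ndufaf5 and Cox6b1 did not pass with replicates 4 to 6 only, and with these replicates 8 were higher and 2 lower. The counts depended on single arrays. Without KO replicate 3 or 4 of day 1, or replicate 1, 2, 3 or 4 of day 2, 2 to 4 members passed in KO MFs. Without WT replicate 2, 3 or 4 of day 1, 5, 3 and 5 passed, and without replicate 5 of day 2 neither Ndufs7 nor Ndufa10 did.

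At day 4, 45 of 89 members were higher than at day 1 in each genotype, a share not far above that of all bright genes. They included most members of complexes I and II and fewer of complexes IV and V. In KO MFs 45 members were higher and 3 lower (27.2% and 37.1% of all genes), with a median of 0.26 against -0.13 over all genes; centring each array gave 51 higher and 3 lower, with 55.9% of the calls over all genes higher in place of 42.3%. In WT MFs 45 were higher and 3 lower (26.0% and 22.6%), with a median of 0.31 against -0.08. Among bright genes 52.9% of members were higher in each genotype, against 44.3% of all bright genes in KO MFs and 40.7% in WT MFs. Much of the count of higher members was thus shared by bright genes in general. The 2 genotypes shared 39 of the higher members (86.7% of each list) and all 3 lower ones: Cox6b2 (-0.39 in KO, -0.28 in WT), Cox8c (-0.36 and -0.26) and Cox4i2 (-0.27 and -0.19). In WT MFs the 3 lower calls were lost without single arrays, each of them without replicate 4 of day 1 (-0.24, -0.19 and -0.15). Of the 45 members higher in WT MFs, 42 were also among the 65 of 89 higher in day 2 Ly6C- MFs labelled WT.

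Complex II had the highest medians, 0.63 in KO and 0.75 in WT MFs. Sdhb was at 9.92, 9.87, 9.52 and 9.64 in KO MFs at day 4, against 9.13, 9.20, 8.92 and 8.88 at day 1 (difference 0.70, adjusted p = 1.09e-06, limma). In WT MFs it was at 9.95, 9.99, 9.75 and 9.82 at day 4, against 9.02, 8.95, 8.87 and 8.82 at day 1 (difference 0.96, adjusted p = 1.18e-09, limma). The days did not overlap in either genotype. Sdha rose by 0.62 in KO and 0.69 in WT MFs, and Sdhd by 0.63 and 0.81, while Sdhc passed in KO (0.50, adjusted p = 0.0102) and not in WT MFs (0.07, adjusted p = 0.744, limma); the difference between genotypes was not tested for Sdhc.

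Of the other complexes, Ndufc2 in the complex I membrane arm was at 11.89 to 12.02 on the 4 KO arrays of day 4, against 11.05 to 11.28 on those of day 1, and rose by 0.79 in KO and 0.87 in WT MFs. Ndufaf1 had the largest difference among the members, 1.33 in KO and 1.29 in WT MFs, with a wide spread: its KO arrays were at 8.66, 7.85, 8.38 and 7.92 at day 4 and at 7.20, 6.47, 6.50 and 7.32 at day 1. Even so the days did not overlap. Ndufaf6, another assembly factor, rose by 0.89 in KO and 0.80 in WT MFs, the core subunit Ndufs3 by 0.70 in KO and Ndufs7 by 0.64 in WT MFs. Cox7a1 rose by 0.87 and 0.55 and Ndufab1 by 0.88 and 0.69. Atp5g2 rose by 0.62 and 0.68, and the other c ring genes Atp5g1 (0.02 and -0.02) and Atp5g3 (0.16 in KO, not past the test, and 0.24 in WT) moved less. The ATP synthase gave 5 of 17 higher in KO and 7 of 17 in WT MFs, complex IV 6 and 5 of 17, complex III 4 of 8 in each, and complex I 26 of 43 in each. Of all genes 27.2% were higher in KO and 26.0% in WT MFs, and of all bright genes 44.3% and 40.7%. The counts of the ATP synthase and of complex IV were thus near or below the share of bright genes.

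Cox7a2l was higher at day 4. There it was at 8.92, 8.32, 8.69 and 8.47 in KO MFs and at 8.73, 8.69, 8.82 and 8.54 in WT MFs, and on the other 36 arrays it was at 7.70 to 8.23, apart from replicate 5 of the untreated day 2 Ly6C+ MFs labelled WT (8.67). Day 4 minus day 1 was 0.64 in KO (SE 0.13, adjusted p = 7.4e-05, limma) and 0.75 in WT MFs (adjusted p = 5.52e-06, limma). A second Cox7a2l probe set gave 0.84 and 0.78. On that probe set no untreated day 2 Ly6C+ array labelled WT was above 7.44, and replicate 5 did not reach the day 4 arrays.

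Day 2 Ly6C+ MFs were also set against the day 4 arrays, which this comparison shares with the one above. In KO MFs 25 members (28.1%) were higher at day 4 and 3 lower, with a median of 0.12 against -0.08. Of all genes 22.3% were higher and 22.5% lower, so the share of higher members in KO MFs was near the background. The share among all bright genes was not computed for day 4 against day 2 Ly6C+ MFs. On the arrays labelled WT, 45 were higher and 6 lower (23.8% and 26.0%; median 0.25 against -0.09). With WT replicates 4 to 6 only, 43 were higher and 4 lower. Centring each array gave 29 higher and 2 lower in KO MFs (62.4% of the calls over all genes higher, in place of 49.8%) and 48 higher and 2 lower labelled WT (60.9%, in place of 47.8%). The largest differences in KO MFs were Ndufaf1 (0.80), Cox7a2l (0.67), Cox6a2 (0.58), Cox7a1 (0.58), Sdhb (0.51), Ndufab1 (0.49) and Ndufs3 (0.49), and on the arrays labelled WT Ndufaf1 (1.07), Sdhd (0.84), Cox7a2l (0.73), Atp5g2 (0.72), Sdha (0.66) and Ndufc2 (0.62). Ndufb6 fell in KO MFs (-0.33) and Ndufs4 on the arrays labelled WT (-0.35, and -0.31 with an adjusted p of 0.0707 in limma with replicates 4 to 6 only). Cox6b2 fell in both (-0.29 in KO, -0.43 in WT), as did Uqcrfs1 (-0.38 in KO and -0.27 in WT), but the WT value of Uqcrfs1 was -0.02 with replicates 4 to 6 only and lost its call without any one of 6 single arrays (-0.26 to -0.22), 3 of them replicates 1 to 3 of day 2. Atp5d rose by 0.62 in WT MFs, but without replicate 5 of day 2 the difference was 0.18 (adjusted p = 0.0978, limma).

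Day 4 MFs carry the Ly6C+ label but had Ly6c levels near those of Ly6C- MFs, so they were also set against day 2 Ly6C- MFs. In KO MFs 3 members were higher and 28 lower at day 4 (13.1% and 11.8% of all genes; median -0.16 against 0.01), and on the arrays labelled WT 3 were higher and 28 lower (14.1% and 15.2%; median -0.19 against -0.01). Among bright genes the share of lower members was 32.9% in KO and 28.6% in WT MFs, against 27.3% and 30.4% of all bright genes, which is near the background. Lower members were shared for 18 genes (64.3% of each list). With WT replicates 4 to 6 only, 2 were higher and 22 lower, and in KO MFs 19 or 20 passed in all without replicate 2 or 4 of the Ly6C- MFs or replicate 3 of day 4.

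Complex I gave 14 of 43 members lower in KO and 17 in WT MFs, complex V 7 of 17 in each, and complex II 0 of 4 in each (medians 0.02 and 0.08); differences between complexes were not tested. Cox7a1 was at 7.91, 7.87, 7.59 and 7.94 in KO MFs at day 4, below all 5 Ly6C- arrays (8.04 to 8.66), and at 7.64, 7.62, 7.73 and 7.86 in WT MFs, below all 6 arrays labelled WT (8.18 to 8.93). Its differences were -0.55 (adjusted p = 0.00518) in KO and -0.85 (adjusted p = 1.08e-05) in WT MFs (limma), and the WT value was -0.51 with replicates 4 to 6 only. Ndufb6 fell by 0.88 in KO MFs, to 10.25 to 10.55 at day 4 against 11.08 to 11.46 in day 2 Ly6C- MFs, and its WT difference was -0.52. Other members that fell were Ndufs4 (-0.68), Ndufa4 (-0.60), Cox7a2 (-0.59), Ndufa1 (-0.58), Ndufs6 (-0.49) and Cox6a1 (-0.42) in KO MFs, where Ndufa1 and Cox6a1 lost their calls without any one of 4 arrays. On the arrays labelled WT they were Ndufc1 (-0.65), Ndufaf4 (-0.57), Ndufab1 (-0.55), Ndufa9 (-0.52), Ndufs5 (-0.48) and Ndufs4 (-0.43); Atp5l (-0.54) and Atp5k (-0.46) did not pass with replicates 4 to 6 only. Higher at day 4 were Cox7a2l (0.72 in KO, 0.79 in WT), and in 1 genotype each Cox6a2 (0.27) and Cox8b (0.23) in KO and Sdhd (0.43) and Atp5g2 (0.24) in WT MFs. With replicates 4 to 6 only, Sdhd was at 0.09 and Atp5g2 at 0.18 and neither passed, Sdhd also lost its call without replicate 1 of day 4, Cox6a2 was lost without KO replicate 5 of day 2 (0.22) or replicate 2 of day 4 (0.20), and Cox8b without any one of 7 arrays (0.17 to 0.24).

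**Figure D4:**
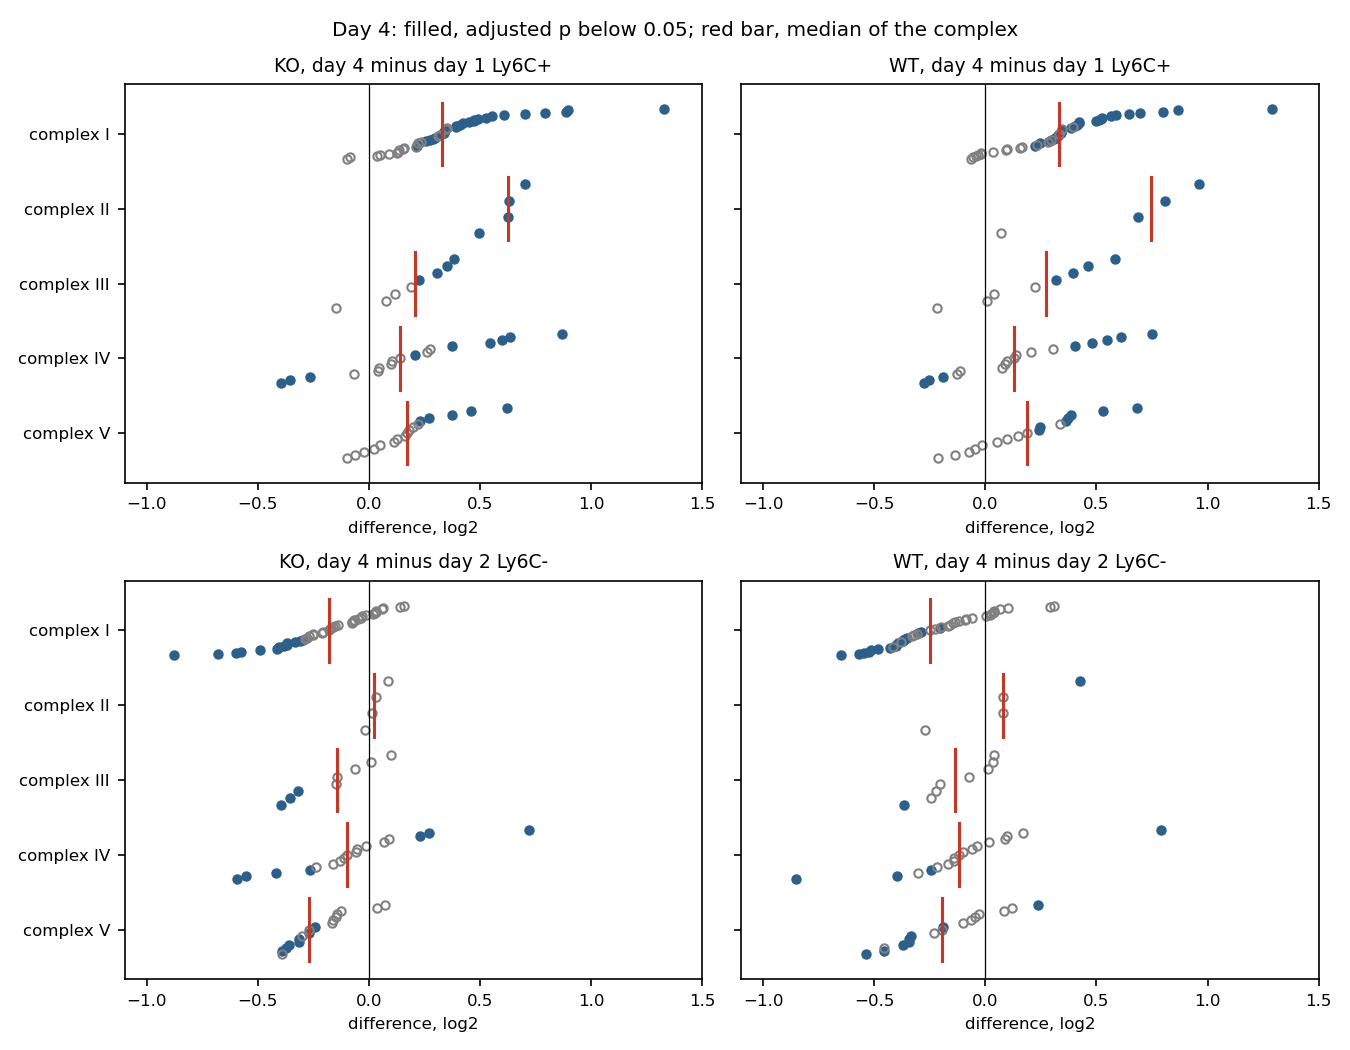
Difference of day 4 Ly6C+ MFs from day 1 Ly6C+ MFs (upper pair) and from day 2 Ly6C- MFs (lower pair) for each member by complex (log2), KO and WT; filled points passed the test and the red bar is the median of the complex. Complex II has the highest medians against day 1 (0.63 in KO, 0.75 in WT) and lies near 0 against day 2 Ly6C- MFs (0.02 and 0.08), where complex I lies at -0.18 and -0.25.

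Many muscle fibre markers and some fibroblast markers were higher on the day 4 arrays. The mean of 15 such markers was 6.93 to 7.13 on the day 4 arrays of both genotypes, against 6.53 to 6.74 in KO and 6.48 to 6.66 in WT MFs at day 1; 8 were higher and 3 lower in KO MFs and 9 higher and 0 lower in WT MFs. The largest rises were those of Myl1, a myosin light chain, by 3.0 in KO and 2.88 in WT MFs, and Acta1, skeletal muscle actin, by 0.98 and 1.07. Pvalb (-0.47), Mb (-0.25) and Myh2 (-0.21) were lower in KO MFs and did not pass in WT MFs. Myh1, Myh4 and Atp2a1 passed in neither genotype. Of 7 fibroblast markers 2 were higher in each genotype, Dcn by 1.15 and 1.27 and Sparc by 0.88 and 0.94. In KO MFs 1 was lower, Col3a1 (-0.22), and Col1a1, Col1a2, Lum and Pdgfra passed in neither genotype. Against day 2 Ly6C- MFs, fibre markers were higher for 12 of 15 in KO (1 lower) and 10 in WT MFs (0 lower), and fibroblast markers for 4 and 5 of 7, with Myl1 at 3.16 and 2.75 and Dcn at 1.38 and 1.27. Cox7a1, Cox6a2 and Cox8b are known from muscle, and the part of fibre or fibroblast RNA in the members' day 4 levels was not tested. Monocyte markers were lower at day 4 than at day 1 in both genotypes, 5 of 5, and neutrophil markers were lower for 12 of 13 in KO and 9 of 13 in WT MFs. Dividing-cell markers were at 8.36 to 9.07 in KO and 8.86 to 8.92 in WT MFs at day 4, against 7.05 to 7.26 and 7.18 to 7.22 at day 1, with 10 of 11 higher in each genotype.

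**Figure D5:**
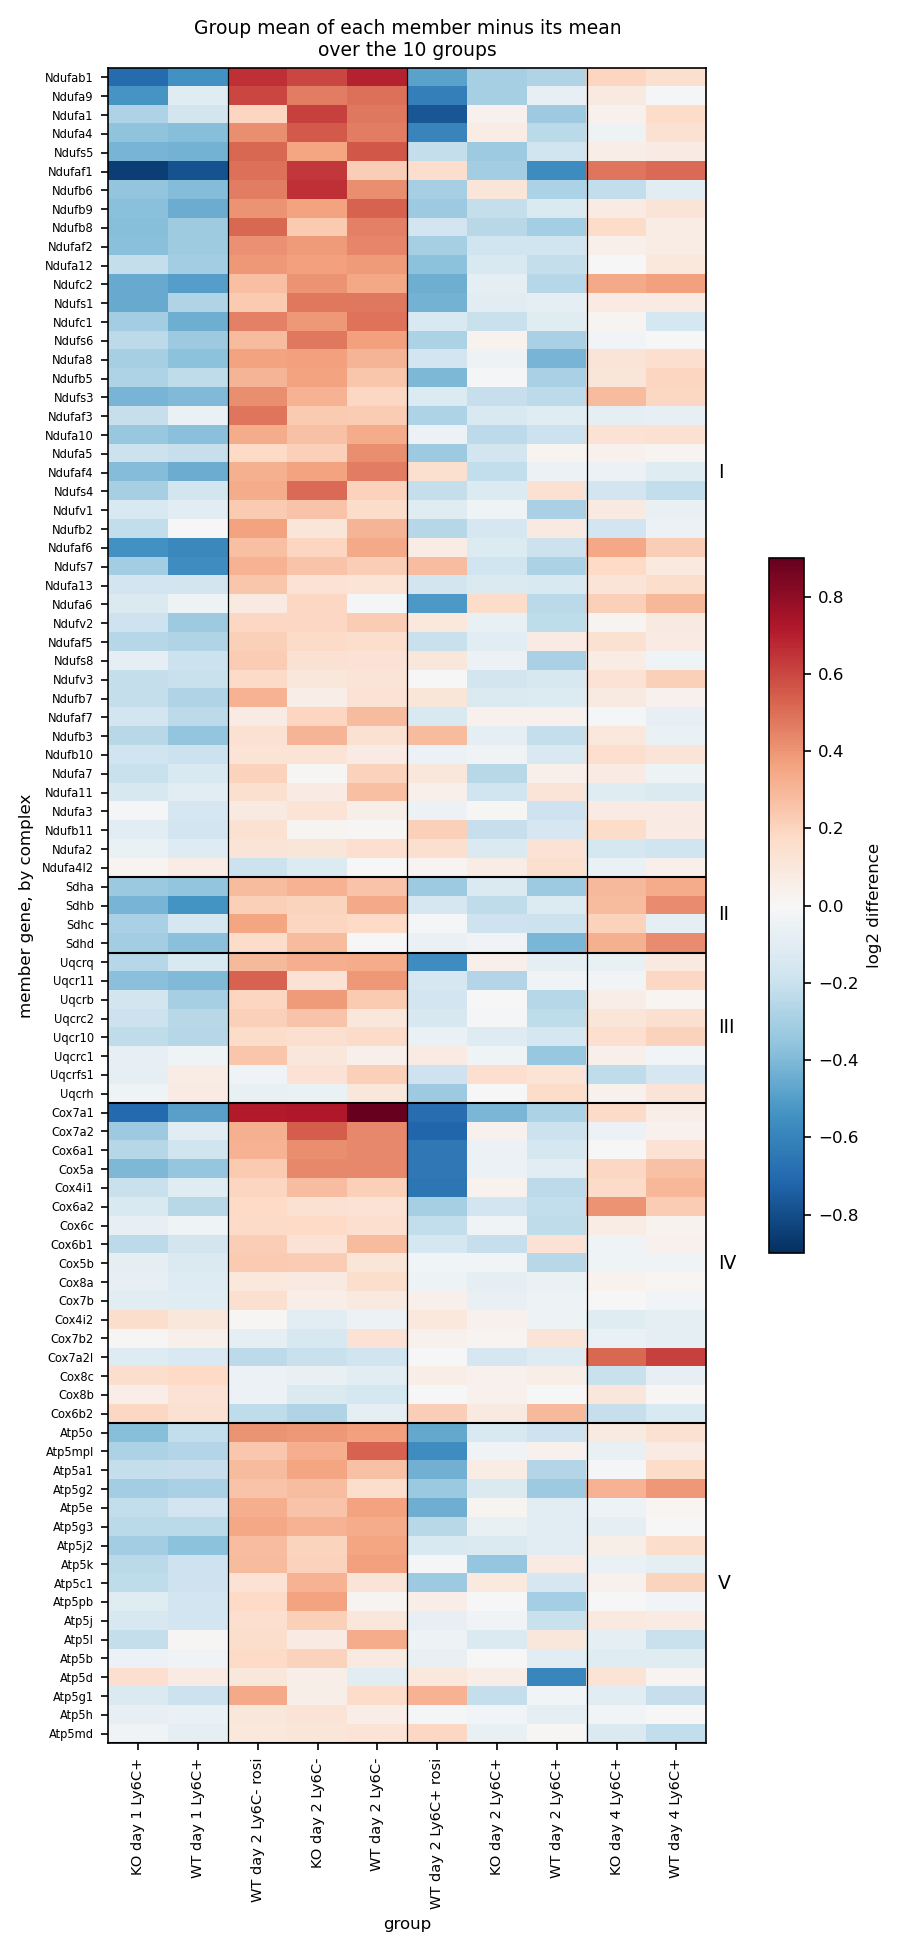
Mean log2 level of each member in each of the 10 groups, shown as the departure from the member's own mean over the groups, by complex; colours are limited to 0.9 either way. The day 2 Ly6C- columns are high for most members; the highest of the 10 group means lay in one of them for 68 of 89 members (20 with rosiglitazone, 23 in KO and 25 in untreated MFs labelled WT), and the largest departure, 0.91, is Cox7a1 in the last of these.

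KO MFs were then set against WT MFs in each group. The KO mice also carried the Cre and floxed alleles, which the WT labels do not name. Loss of Pparg therefore cannot be told apart from these in this contrast. Pparg RNA was not seen to be lower in KO MFs: it differed by 0.10 at day 1 and 0.24 at day 4. At day 2 it differed by 0.08 in Ly6C+ and 0.0006 in Ly6C- MFs, and no difference passed. At day 1 no member passed (0.0301% of all genes higher and 0.00502% lower; 2 members at an unadjusted p below 0.05), nor at day 4 (0.0451% and 0.0201%; 0 members), nor in day 2 Ly6C- MFs (0.0853% and 0.115%; 12 members), all with limma. Of all 19938 genes, 621 at day 1, 592 at day 4 and 1977 in day 2 Ly6C- MFs had such an unadjusted p. The 95% interval of the difference lay within 0.5 either way for 82 members at day 1, 83 at day 4 and 81 in day 2 Ly6C- MFs. Cox7a1, for example, was -0.21 (interval -0.54 to 0.12) at day 1 and 0.11 (-0.21 to 0.44) at day 4, and Sdha 0.03 (-0.13 to 0.18) and -0.04 (-0.19 to 0.11).

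In day 2 Ly6C+ MFs, 1 member was higher in KO and 1 lower (1.09% and 0.787% of all genes). An unadjusted p below 0.05 was reached by 35 members, against 3104 of all 19938 genes (limma). Ndufb6 was at 10.72, 10.93, 10.53, 10.68 and 10.72 in KO MFs, above all 6 arrays labelled WT (10.23, 10.34 and 10.45 for lowest, median and highest), with a difference of 0.39 (SE 0.10, adjusted p = 0.0386, limma). Cox6b1, a subunit on the outer side of complex IV, was at 10.37, 10.44, 10.41, 10.52 and 10.42 in KO MFs and at 10.46, 10.78 and 11.06 in MFs labelled WT, where 1 KO array overlapped (difference -0.34, SE 0.07, adjusted p = 0.0122, limma). Neither passed in limma with WT replicates 4 to 6 only (Ndufb6 0.38, adjusted p = 0.0959, and Cox6b1 -0.29, adjusted p = 0.0895), with only the arrays compared, or with the replicate number as a block. Ndufb6 was also lost on leaving out any one of 7 arrays, with differences of 0.33 to 0.41. Centring each array kept both calls and left 71.8% of the calls over all genes higher, in place of 58.0%.

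These counts depended on which arrays labelled WT were used. Against replicates 1 to 3 only, 27 members differed in day 2 Ly6C+ MFs (13 higher and 14 lower in KO, with 7.94% and 7.14% of all genes) and 29 in Ly6C- MFs (14 higher and 15 lower, with 6.52% and 7.85%). Against replicates 4 to 6 only, 8 differed in Ly6C+ MFs (7 higher and 1 lower, with 0.777% and 0.838%) and 0 in Ly6C- MFs (0.0401% and 0.0752%). The 7 higher in KO were Ndufa1 (0.80), Cox4i1 (0.61), Ndufa8 (0.60), Ndufa4 (0.54), Atp5a1 (0.54), Ndufs6 (0.47) and Ndufc2 (0.37). Atp5g1 was lower (-0.32). None of these 8 passed with all 6 replicates. In Ly6C+ MFs 16 members differed without WT replicate 4, 7 without WT replicate 6, and 1 without WT replicate 1 or 2 or KO replicate 1, 2, 4 or 5. Between replicates 1 to 3 and 4 to 6 themselves, 24 members were higher and 15 lower, 27.0% and 16.9% of 89, against 10.5% and 10.3% of all genes. Atp5mpl, a small proteolipid of the ATP synthase, was higher by 0.82 in replicates 1 to 3, Uqcrh by 0.69 and Cox7a1 by 0.60, and Sdhd was at -0.51 and Ndufaf1 at -0.76. Whether the subset difference depended on genotype was tested as an interaction. No member passed (0% of all genes higher, 0.0100% lower, limma), and none did with replicates 4 to 6 only. An unadjusted p below 0.05 was reached by 1 member, against 559 of all 19938 genes (limma).

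Rosiglitazone was set against no treatment in day 2 MFs labelled WT. In Ly6C- MFs no member passed (0.0150% of all genes higher and 0.0201% lower, limma), and 79 had a 95% interval within 0.5 either way. An unadjusted p below 0.05 was reached there by 6 members, against 1920 of all 19938 genes (limma). In Ly6C+ MFs 6 were higher and 9 lower (5.52% and 5.60% of all genes), which was near the background, with a median of -0.02 for members and for all genes. Ndufs7, a core complex I subunit, was at 12.05, 11.75 and 11.80 with rosiglitazone, above all 6 untreated arrays (11.13, 11.26 and 11.68), with a difference of 0.56 (SE 0.10, adjusted p = 0.000358, limma). Also higher were Ndufb3 (0.50), Uqcrc1 (0.42), Ndufb11 (0.37), Atp5g1 (0.34) and Ndufv2 (0.32). Lower were Atp5mpl (-0.60), Cox5a (-0.54), Ndufa9 (-0.54), Cox7a2 (-0.52), Uqcrq (-0.48), Cox6a1 (-0.48), Ndufs1 (-0.35), Cox6b1 (-0.29) and Ndufaf5 (-0.27). Cox7a2 was at 7.90, 8.66 and 8.30 with rosiglitazone, against 8.51, 8.80 and 9.10 untreated, so the groups overlapped.

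With untreated replicates 4 to 6 only, Ndufs7 was the 1 member left (0.40, adjusted p = 0.0457, limma; 0.597% of all genes higher and 0.953% lower). With replicates 1 to 3 only, 17 members were higher and 27 lower, with 13.3% and 14.0% of all genes. Each of the 9 lower members lost its call without rosiglitazone replicate 1 and without rosiglitazone replicate 3, when 6 and 5 members in all passed, each of them higher. Without untreated replicate 4 or 5 of the Ly6C+ MFs 24 passed, and without untreated replicate 1, 2 or 3, 7, 7 and 8 did. The interaction of treatment and subset passed for no member (0.0100% of all genes higher, 0.00502% lower, limma). It passed for 1 without untreated Ly6C+ replicate 4, and for none with untreated replicates 4 to 6 only. On all arrays, 10 members had an unadjusted p below 0.05, against 1547 of all 19938 genes (limma).

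Other genes of the pathway were read from lists. Differences are again Ly6C- minus Ly6C+ at day 2. Of all genes 22.2% were higher labelled WT, 19.8% in KO and 14.6% with rosiglitazone, and 23.0%, 18.6% and 8.68% were lower. Among all bright genes 39.2%, 34.2% and 26.0% were higher. Of 15 measured genes of the TCA cycle and pyruvate dehydrogenase, which feed the chain, 11 were higher labelled WT, 7 in KO and 8 with rosiglitazone, and none was lower; labelled WT, Fh1 (fumarase) differed by 0.81, Suclg2 by 0.74 and Dlat by 0.58. Of 33 measured assembly factors outside the name rule, 23 were higher and 2 lower labelled WT, 20 and 1 in KO, and 14 and 0 with rosiglitazone. Tmem126b, which helps build complex I, differed by 1.30, Sdhaf4 (complex II) by 1.22, Bcs1l (complex III) by 0.99 and Atpaf1 (ATP synthase) by 0.97, more than most members, and Ttc19, a complex III factor, was lower (-0.51). Among 14 electron carriers and ubiquinone genes 10, 10 and 9 were higher, with Coq3 at 1.06 and Coq5 at 0.78, while cytochrome c, Cycs, was at -0.14 and did not pass (adjusted p = 0.532, limma). Of 7 genes for transport and ATP synthase inhibition, 5 were higher in each setting, led by the ADP/ATP carrier Slc25a4 (1.10), Vdac1 (0.97) and the inhibitor Atpif1 (0.50).

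Regulators of mitochondrial biogenesis were mixed: 6 of 19 were higher and 2 lower labelled WT and in KO MFs, and 4 and 1 with rosiglitazone. The share of higher regulators lay between those of all genes and of all bright genes in each setting. Rxra, the partner of PPARg, differed by 0.85, the mitochondrial transcription genes Tfb1m by 0.79 and Tfam by 0.61, and the coactivator Ppargc1b by 0.47. Ppard (-0.40) and Nrf1 (-0.25) were lower. Of the factors whose letters were searched in the promoters, Gabpa (-0.06), Esrra (-0.03) and Yy1 (-0.13) did not pass, nor did Ppargc1a (0.18). The 13 subunits encoded by mitochondrial DNA had no single-symbol probe set here and were not analysed.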

How the data were processed

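RNA of sorted MFs was hybridised to Affymetrix whole-transcript mouse gene arrays (44 arrays, 10 groups). The deposited values are log2 expression levels that the authors made with RMA (background correction, quantile normalization and probe set summary, which leaves differences relative to the bulk of the genes and compresses those of dim genes). The version of RMA was not given in the sources used here. Array medians ranged from 6.64 to 6.77, no pair of arrays held identical values. Precision is limited by how many arrays a group had.

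Of 35556 probe sets, 21789 had a single gene symbol in the platform annotation, 1621 several and 12146 none. Probe sets with several symbols were not used, which left out 6 that matched the name rule. Genes with several probe sets (999) were read from the one with the highest mean, giving 19938 genes. Of the 89 members 17 had several probe sets, and in 97 of 102 pairs of a member and a comparison these had one sign.

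Group means were fitted on all 44 arrays with limma 3.58.1 in R 4.3.3 (34 residual and 6.46 prior degrees of freedom), and p-values were adjusted over all genes by Benjamini-Hochberg, with a threshold of 0.05. Intervals are 95% intervals of that fit. The script was tested on simulated data. Tables and figures were made with Python 3.11.15, pandas 2.3.3, numpy 2.4.6 and matplotlib 3.10.9. By rule, the members named were those with the largest differences past the threshold (up to 10 in each direction and comparison), the highest and lowest by mean level in each complex, and a fixed set of core subunits and tissue-restricted or paired isoforms; a few others were named after their values were seen. The lists read were those for the TCA cycle, assembly factors, electron carriers, biogenesis regulators, transport, and markers of dividing cells, muscle fibre, monocytes, neutrophils, macrophages, endothelium and fibroblasts. The members and lists were chosen with earlier results of these data known.

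Replicate numbers shared by the subsets were checked as pairs. With rosiglitazone, same-numbered arrays deviated together (r = 0.134 to 0.443, each array closest to its own number), so these samples were taken as paired from the data; the labels do not say what a number shares. The alternatives were centring each array, fitting only the arrays compared, the replicate number as a block, quantile normalization repeated, the dimmest genes left out, an intensity trend in eBayes, the mean over a gene's probe sets, each array left out in turn, and the untreated day 2 arrays labelled WT as replicates 1 to 3 or 4 to 6 only.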

Additional observations from a re-analysis of the deposited data

Results flagged for a closer look

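In 9 of 160 tests of a member in a group of 4 to 6 arrays, the highest or lowest array lay far from the others for the group's range (gap divided by range, Dixon's 95% limit); chance gives about 1 in 20. Atp5d gave 3: in WT MFs at day 1, replicate 4 was the highest (0.919, at 12.66 against 12.56 to 12.57), in untreated day 2 Ly6C+ MFs labelled WT replicate 5 was the lowest (0.815, at 9.75 against 12.15 to 12.69), and in WT MFs at day 4 replicate 3 was the highest (0.844, at 12.59 against 12.51 to 12.53). Uqcrc1 gave another pair: replicate 4 of untreated day 2 Ly6C+ MFs labelled WT was the highest (0.704, at 10.73 against 9.95 to 10.18), and so was replicate 2 of KO MFs at day 4 (0.831, at 10.70 against 10.51 to 10.55).

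Cox7a2l in replicate 5 of untreated day 2 Ly6C+ MFs labelled WT was the highest (0.758, at 8.67 against 7.70 to 7.94), which lies within its day 4 range. The second Cox7a2l probe set did not show this: all arrays of that group were at 7.09 to 7.44 there. Its day 4 arrays were at 7.65 to 8.27 in KO and 7.88 to 7.93 in WT MFs. In KO MFs, Sdhb of replicate 5 in day 2 Ly6C+ MFs was the lowest (0.721, at 9.09 against 9.23 to 9.29), Atp5g2 of replicate 5 in day 2 Ly6C- MFs was the lowest (0.752, at 11.76 against 11.99 to 12.06), and Sdhd of replicate 1 at day 1 was the highest (0.867, at 9.50 against at most 9.18).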

How the results depend on the processing

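Of 2492 alternative values of 146 named member differences, 2220 kept their side of the threshold, 272 lost it with the same sign and 0 changed sign. The total of members called moved by over 1.5 times as follows. With each array centred on its median, day 2 minus day 1 in WT MFs gave 5 (8 in the report) and rosiglitazone minus untreated in Ly6C+ MFs 9 (15). With only the arrays compared, the first gave 0 and the second 0, KO minus WT in day 2 Ly6C+ MFs gave 0 (2) and day 4 minus day 2 in WT MFs 33 (51). With the replicate number as a block, which pairs samples by number only outside the rosiglitazone subsets, the totals were 1 for WT day 2 minus day 1, 32 for WT day 4 minus day 2, 14 (7) for KO day 2 minus day 1, 0 for KO minus WT in day 2 Ly6C+ MFs, and 35 and 4 (0) for rosiglitazone in Ly6C+ and Ly6C- MFs. For the subset comparison the block gave 73 in KO MFs and 62 labelled WT, where 4 of 5 and 3 of 6 numbers were closest to their own; it moved no other total by over 1.5 times. With untreated replicates 1 to 3 only, day 2 minus day 1 gave 25, day 4 minus day 2 Ly6C- 49 (31), KO minus WT 27 in Ly6C+ and 29 (0) in Ly6C- MFs, rosiglitazone 44 and 21, and the rosiglitazone interaction 3 (0). With replicates 4 to 6 only, KO minus WT in Ly6C+ MFs gave 8 and rosiglitazone in Ly6C+ MFs 1.

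Leaving out 1 array at a time gave, for the subset comparison, 42 to 55 with rosiglitazone, 52 to 58 in KO MFs and 62 to 71 labelled WT. It gave 2 to 7 and 3 to 12 for day 2 minus day 1 in KO and WT MFs, 22 to 28 and 39 to 50 for day 4 minus day 2, 37 to 50 and 40 to 47 for day 4 minus day 1, and 19 to 28 and 24 to 35 for day 4 minus day 2 Ly6C-. It gave 1 to 16 for KO minus WT and 5 to 24 for rosiglitazone in day 2 Ly6C+ MFs, and 0 to 1 for the rosiglitazone interaction. The cause was not tested. No detection call was used, so whether the dimmest members lay above background was not tested.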
